A study of Mus musculus with 10 samples.

Results

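The imprinted growth genes followed here are H19, Dlk1, Meg3, Rian, Peg3, Peg10, Mest, Plagl1, Zim1 and Sgce, 10 of the 46517 genes counted in each library. They were taken from a named list of genes expressed mainly from 1 parental allele, and all 10 had a row in the count tables. The RNA came from sorted cells of mouse allografts of malignant peripheral nerve sheath tumour (MPNST), a sarcoma that arises in the Schwann cell lineage. From every allograft model (5 in all, with the letters A, B, C, D and E) came 1 GFP+ library, of cells that the series describes as expressing the CGD transgene, and 1 GFP- library, of cells that do not. Per the labels, the sort also removed dead cells and wild-type cells of the host, and they call both populations tumour cells. The labels do not expand CGD and do not give the driver of the transgene, the genotype of each tumour, the strain or age of the mice, or whether a model stands for 1 animal.

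An imprinted gene is transcribed mostly from the maternal or mostly from the paternal chromosome, because the 2 copies carry different DNA methylation at a control region that is set in the germ line. Many imprinted genes act on growth in the embryo and placenta, the paternally expressed ones often promoting it and the maternally expressed ones often restraining it, and most are turned down in tissues after birth. They lie in clusters, so that a coding gene and a long noncoding RNA often share 1 control region. Which parental allele gave the reads was not measured here, nor was methylation.

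The libraries held 15978673 to 22082207 reads in genes. Levels are given as CPM, a gene's count scaled to the total of gene reads in its library, and 13986 genes had enough reads to be tested. Of the members, 9 were tested and Zim1 was not. Fibroblast markers summed to 16191 to 29224 CPM in GFP+ and 16101 to 32183 CPM in GFP- libraries. Most of this sum was Col1a1, Col3a1 and Dcn, whereas Lum of the same list did not exceed 60.5 CPM and Pi16 27.0 CPM. In B, Dcn had 140 CPM for GFP+ and 68.6 CPM for GFP- cells. Pdgfra of the same list was higher there, with 1712 CPM for GFP+ and 2469.5 CPM for GFP- cells. The Schwann lineage factor Sox10 stood at 0.111 to 112 CPM in GFP+ and 0 to 7.65 CPM in GFP- libraries. Sox10 was under 1 CPM in both libraries of A and of E, and S100b, another Schwann marker, did not exceed 2.93 CPM in any library. The Schwann list of 8 genes as a whole was not at 0 there: it summed in A to 10.6 CPM for GFP+ and 9.56 CPM for GFP- cells, and in E to 37.0 CPM for GFP+ and 18.0 CPM for GFP- cells, of which Egr2 gave 28.6 CPM for GFP+ and 12.9 CPM for GFP- cells. Xist is the RNA that silences 1 X chromosome in female cells. In A it stood at 0.111 CPM for GFP+ and 0.0514 CPM for GFP- cells, and over the libraries of B, C and E at 523 to 1049 CPM. The 2 libraries of D were the least alike in Xist, with 102.6 CPM for GFP+ and 2.82 CPM for GFP- cells. The smooth muscle and pericyte list was split in D. GFP- cells held more Myh11 (0.165 CPM for GFP+ and 12.2 CPM for GFP- cells). They also held more Rgs5 (16.8 CPM for GFP+ and 63.8 CPM for GFP- cells), Pdgfrb and Kcnj8. Acta2 (181 CPM for GFP+ and 126 CPM for GFP- cells) went the other way. So did Cspg4 (48.4 CPM for GFP+ and 40.0 CPM for GFP- cells). Xist, Egr2, Myh11 and Rgs5 were singled out after their values were seen. In such bulk libraries fewer cells that express a gene and less RNA per cell cannot be told apart.

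Several members are hosts of microRNAs. The reads counted here are those of the host gene, and primary microRNA transcripts were not measured as such. H19 holds 1 annotated microRNA gene, Meg3 2, Mest 1, and Rian 3. Mature microRNAs were not measured. Other mature microRNAs of Meg3 and Rian are not printed, and the seeds of miR-1906 (Meg3) and miR-370-5p (Rian) each occur 2 times in RefSeq. The 7 mature sequences below, from RefSeq on GRCm38.p6, are part of what the 4 member host RNAs encode. The seed (bases 2 to 8) is in capitals. The 7 printed seeds are all different, and each occurs once among the mature sequences of the RefSeq table.
miR-675-5p in H19 (chr7:142577112-142577133, - strand): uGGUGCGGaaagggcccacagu
miR-675-3p in H19 (chr7:142577078-142577099, - strand): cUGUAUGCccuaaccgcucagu
miR-335-5p in Mest (chr6:30741314-30741336, + strand): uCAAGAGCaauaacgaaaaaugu
miR-335-3p in Mest (chr6:30741354-30741375, + strand): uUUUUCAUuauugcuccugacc
miR-770-5p in Meg3 (chr12:109563710-109563731, + strand): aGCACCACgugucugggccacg
miR-370-3p in Rian (chr12:109618305-109618326, + strand): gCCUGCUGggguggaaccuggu
miR-341-3p in Rian (chr12:109611556-109611576, + strand): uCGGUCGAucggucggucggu

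Start-site sequence could be shown for part of the list: 7 of the 10 members had a RefSeq window, 10 windows in all, and H19, Peg10 and Sgce had none. Each window runs from 250 bases before to 50 after an annotated start. The motif of the imprint-protecting zinc-finger protein ZFP57, TGCCGC on either strand, lay in 5 of the 10 windows, those of Meg3, Mest (a pair that overlap almost wholly), Plagl1 and Zim1, and in 11.6% of all 32851 windows. The letters GGGGCCCC, which read the same on both strands and form a PLAGL1-type motif, lay in the Peg3 window and in 1.08% of all windows; the 2 motifs did not overlap. CpG pairs numbered 26 in the Plagl1 window, 20 for Zim1, 17 for the Mest window shown and 13 for Peg3. The Meg3 window shown also had 13, Dlk1 9 and Rian 0, against a median of 7 over all windows. A further window of Mest had 8 CpG pairs and a further window of Meg3 had 1, and neither held a motif. The 250 bases before the start are printed on the gene's strand for 4 members whose RNA differed between models, with either motif in capitals. A match is a run of letters only, and binding was not measured.
Mest (chr6:30737800-30738049, + strand): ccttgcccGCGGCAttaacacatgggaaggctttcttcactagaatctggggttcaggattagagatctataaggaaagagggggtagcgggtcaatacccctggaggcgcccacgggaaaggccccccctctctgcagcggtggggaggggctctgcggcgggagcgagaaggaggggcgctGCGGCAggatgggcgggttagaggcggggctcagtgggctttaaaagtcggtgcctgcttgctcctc
Peg3 (chr7:6730420-6730669, - strand): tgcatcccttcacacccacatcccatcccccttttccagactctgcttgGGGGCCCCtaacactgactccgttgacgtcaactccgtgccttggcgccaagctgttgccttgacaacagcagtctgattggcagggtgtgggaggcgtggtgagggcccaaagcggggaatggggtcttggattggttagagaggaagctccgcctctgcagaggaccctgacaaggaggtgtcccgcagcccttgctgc
Plagl1 (chr10:13090582-13090831, + strand): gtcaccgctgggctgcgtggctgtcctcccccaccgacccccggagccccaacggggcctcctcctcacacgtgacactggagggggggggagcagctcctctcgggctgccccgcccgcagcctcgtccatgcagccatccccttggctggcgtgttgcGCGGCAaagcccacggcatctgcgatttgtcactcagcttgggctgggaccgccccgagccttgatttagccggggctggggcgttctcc
Meg3 (chr12:109540746-109540995, + strand): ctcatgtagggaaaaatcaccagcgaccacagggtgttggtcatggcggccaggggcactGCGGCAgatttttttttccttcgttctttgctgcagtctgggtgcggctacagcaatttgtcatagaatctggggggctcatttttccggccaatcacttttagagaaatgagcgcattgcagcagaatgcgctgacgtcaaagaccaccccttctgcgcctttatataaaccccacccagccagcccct

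H19, a maternally expressed long noncoding RNA that restrains growth in the mouse embryo, was the member with the widest differences. It lies on the minus strand at chr7:142575529-142578143. H19 stood at 1288, 827, 203, 3575 and 24.9 CPM in GFP+ cells of models A, B, C, D and E, against 1573, 3225, 617, 2462 and 1.57 CPM in GFP- cells of the same models. It was abundant in D, B and A and low in E, where the GFP+ library held 517 and the GFP- library 29 H19 reads. Model means of log2 CPM ran in the order D, B, A, C and E, with the libraries of D and B and those of B and A overlapping. The gap between the highest and the lowest model mean was 8.80 on the log2 scale, a gap that only 6 of the 13986 tested genes reached, H19 included. The models differed in H19 (edgeR quasi-likelihood F test, adjusted p = 0.0188). Within models the 2 populations also lay apart, in both directions. On the log2 scale, GFP+ minus GFP- was negative in A (-0.32), B (-2.03) and C (-1.62) and positive in D (0.48) and E (3.91). Mean H19 levels were 1184 ± 1428 CPM for GFP+ libraries and 1576 ± 1314 CPM for GFP- libraries (SD over 5 models), and no change passed the test (log2 -0.21, SE 0.78, adjusted p = 0.966).

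The neighbours of H19 on chromosome 7 had patterns of their own. Igf2, the paternally expressed growth factor that shares the H19 control region, stood at 309.6, 312, 351, 4122 and 558 CPM in GFP+ cells of A to E, against 283, 1129, 507, 1259.5 and 225 CPM in GFP- cells. Igf2 was thus present in all 10 libraries, model E included. The read ratio of H19 to Igf2 was 4.16, 2.65, 0.580, 0.867 and 0.0449 in GFP+ cells of A to E, against 5.56, 2.86, 1.22, 1.95 and 0.00746 in GFP- cells. It was lowest in E in both populations and lower in GFP+ than in GFP- cells in models A to D. Cdkn1c, a maternally expressed cyclin-dependent kinase inhibitor of the adjoining domain, was also lowest in E, where GFP+ cells had 3.09 CPM and GFP- cells 0.217 CPM, and highest in D, where GFP+ cells had 237 CPM and GFP- cells 289.9 CPM. The noncoding RNA of that domain, Kcnq1ot1, had its highest levels in E (25.2 CPM for GFP+ and 16.5 CPM for GFP- cells) and stood at 5.87 CPM for GFP+ and 5.51 CPM for GFP- cells in D. It was higher in GFP+ cells in 5 of 5 pairs but did not pass (log2 0.32, SE 0.14, adjusted p = 0.549, edgeR). Phlda2, a maternally expressed restraint on placental growth, did not exceed 1.06 CPM.

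**Figure D1:**
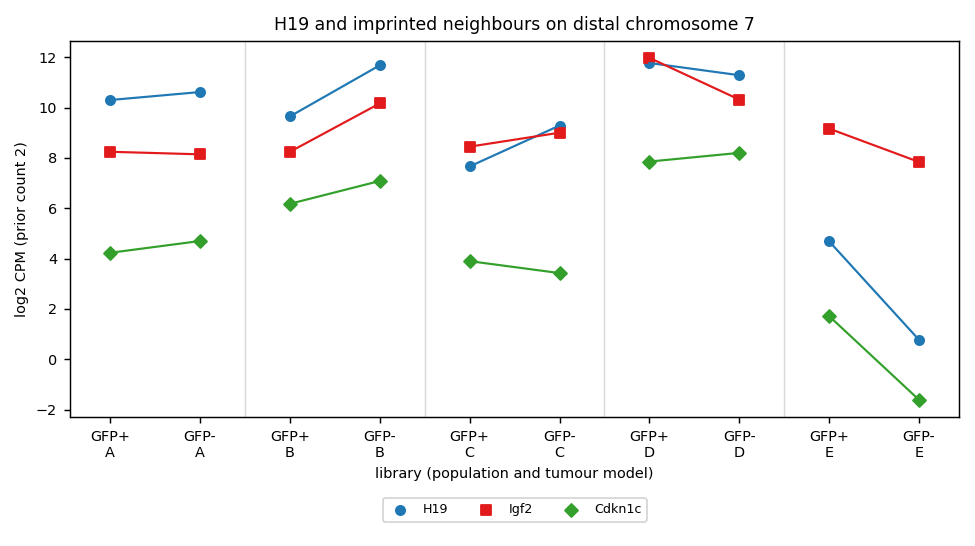
Log2 CPM (prior count of 2) of H19, Igf2 and Cdkn1c by library, with the GFP+ point of each model left of its GFP- point and a line joining the pair. H19 and Cdkn1c drop in model E, to 24.9 and 3.09 CPM in GFP+ cells and to 1.57 and 0.217 CPM in GFP- cells, while Igf2 stays above 200 CPM in all libraries.

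The chromosome 12 domain holds the paternally expressed Dlk1 and, on the maternal copy, the noncoding RNAs Meg3 and Rian. Dlk1 encodes a membrane protein of the Notch ligand type that keeps preadipocytes and other progenitors undifferentiated. Meg3 is a long noncoding RNA with growth-restraining activity in cultured cells, and Rian carries small nucleolar RNAs and microRNAs in its introns. Dlk1 (plus strand, chr12:109452823-109463336) stood at 429, 219, 17.1, 552 and 367 CPM in GFP+ cells of A to E, against 981, 106, 21.0, 597 and 418 CPM in GFP- cells. Both libraries of C lay below all others. The order of model means was A, D, E, B and C, with A and D overlapping.

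Meg3 (plus strand, chr12:109541001-109571726) stood at 557, 329, 95.0, 592 and 102 CPM in GFP+ cells of A to E, against 796, 210.2, 94.8, 856 and 77.1 CPM in GFP- cells. Rian (plus strand, chr12:109603940-109661716) stood at 141, 117, 22.9, 222 and 37.9 CPM in GFP+ cells, against 226, 61.5, 17.1, 234 and 32.3 CPM in GFP- cells. Both noncoding RNAs were high in D and A, intermediate in B and low in C and E. For Meg3 the libraries of D and A and those of C and E overlapped; for Rian only those of D and A did. The models differed in Dlk1 (adjusted p = 0.00175), Meg3 (adjusted p = 0.00108) and Rian (adjusted p = 0.00132) by the edgeR F test. Without model C the value for Dlk1 was 0.0572.

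Meg3 and Rian varied less against each other than each did alone. Meg3 had 2.38 to 5.51 reads for each Rian read over the 10 libraries, a 2.31-fold range, although Meg3 itself spanned 11.02-fold and Rian 13.6-fold. Mirg, the microRNA host farther along the same domain (14 annotated microRNA genes), stood at 14.6, 10.3, 0.978, 20.2 and 4.05 CPM in GFP+ cells of A to E, against 21.2, 6.11, 1.10, 29.0 and 2.60 CPM in GFP- cells. Mirg kept its proportion less closely. Rian had 8.03 to 21.2 reads for each Mirg read, a 2.64-fold range, and Meg3 had 24.6 to 87.7 with a median of 32.6, a 3.57-fold range; in C the Meg3 to Mirg ratio was 87.7 in GFP+ and 78.7 in GFP- cells, above every other library. Dlk1 did not keep such a proportion: Meg3 had 0.185 to 5.52 reads for each Dlk1 read, a 29.9-fold range. Its paternal partners in the domain were scarce, with Dio3 (a thyroid hormone-inactivating deiodinase) at most 2.56 CPM and Rtl1 (a retrotransposon-derived gene needed in the placenta) at most 1.81 CPM. Begain, which lies beside Dlk1, moved with the noncoding RNAs, with 0.0417 to 0.105 reads for each Meg3 read. These ratios are of reads and are not corrected for length. Both genes of a ratio share the depth of a library, and the 2 libraries with the same letter come from 1 tumour model.

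**Figure D2:**
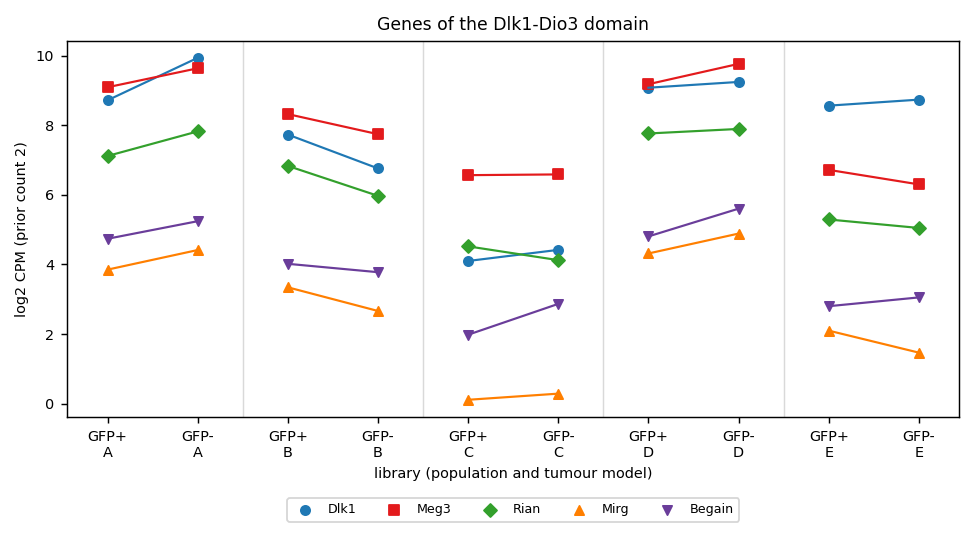
Log2 CPM (prior count of 2) of Dlk1, Meg3, Rian, Mirg and Begain by library, with the GFP+ point of each model left of its GFP- point and a line joining the pair. Meg3, Rian, Mirg and Begain share a shape that is high in A and D, while Dlk1 in E (367 CPM for GFP+ and 418 CPM for GFP- cells) stands much higher above its level in C than they do.

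Peg3 and Zim1 encode zinc-finger proteins of 1 cluster on chromosome 7; Peg3 is expressed from the paternal and Zim1 from the maternal copy, and loss of paternal Peg3 reduces growth in mice. Peg3 (minus strand, chr7:6703892-6730431) stood at 0.222, 53.4, 11.6, 119.5 and 1.64 CPM in GFP+ cells of A to E, against 0.514, 46.7, 2.20, 122 and 0.108 CPM in GFP- cells. It was plain in D and B and close to absent in A and E, where 4 and 34 reads stood in GFP+ and 10 and 2 reads in GFP- libraries. The gap between model means was 8.07 on the log2 scale, reached by 10 tested genes, and the models differed (edgeR F test, adjusted p = 0.00119). The libraries of E and A overlapped. Where Peg3 was low, GFP+ cells exceeded GFP- cells in C by 2.32 and in E by 3.05 on the log2 scale, but fell short in A (-0.94), and in the well-expressing models B and D the difference was 0.12 and -0.08.

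Zim1 (minus strand, chr7:6671269-6696450) stood at 0, 0.160, 0.109, 3.07 and 0.0483 CPM in GFP+ cells of A to E, against 0.103, 0.0453, 0, 8.39 and 0 CPM in GFP- cells. Only D held more than 3 reads, with 56 in GFP+ and 134 in GFP- cells. The other listed genes of the cluster were scarcer still: Usp29 had reads only in D, 4 in GFP+ and 6 in GFP- cells, and Zim2 and Zim3 had 0 in every library. A count of 0 allows up to 3 reads by counting error alone.

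Peg10 and Sgce are adjoining paternally expressed genes on chromosome 6 that are read in opposite directions. Peg10 derives from a retrotransposon and is needed for the mouse placenta; Sgce encodes epsilon-sarcoglycan, a membrane protein of the dystrophin-associated complexes. Peg10 (plus strand, chr6:4747306-4760517) stood at 326, 401, 68.9, 385 and 309 CPM in GFP+ cells of A to E, against 362, 151, 73.7, 312 and 283 CPM in GFP- cells. Sgce (minus strand, chr6:4674350-4747207) stood at 75.3, 78.5, 45.0, 94.9 and 57.6 CPM in GFP+ cells, against 67.5, 75.5, 48.0, 97.3 and 63.1 CPM in GFP- cells. Both genes were lowest in C in both populations, and the C libraries did not overlap any other. Sgce kept within a log2 range of 1.03 between model means, the narrowest of the 9 tested members, and its models were separated without any overlap between neighbours (D, B, A, E, C).

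The step in Sgce was small, but the models differed in it (edgeR F test, adjusted p = 0.00283), as they did in Peg10 (adjusted p = 0.00889). Without model C the Peg10 value was 0.646, so its call rests on C. Peg10 had 4.33, 5.09, 1.53, 4.06 and 5.35 reads per Sgce read in GFP+ cells of A to E, against 5.35, 2.01, 1.53, 3.21 and 4.48 in GFP- cells. C was low in both populations, and B was low in GFP- cells alone. Of the flanking listed genes, Casd1, at 35.7 to 58.3 CPM over the libraries, was not called between models (adjusted p = 0.311), whereas Ppp1r9a was (adjusted p = 0.00482), both by edgeR. Asb4 did not exceed 1.65 CPM.

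Mest is a paternally expressed gene for a membrane enzyme of the hydrolase fold that is associated with growth and fat cell size in mice. It also differed widely between models. Mest (plus strand, chr6:30723547-30748465) stood at 555, 116, 18.3, 676 and 129 CPM in GFP+ cells of A to E, against 486, 106, 14.0, 840.4 and 285 CPM in GFP- cells. The order D, A, E, B and C held with no overlap between neighbouring models. The gap was 5.54 on the log2 scale, and Mest had the smallest adjusted p between models of the members (0.000583, edgeR F test). Copg2, a coat protein gene that overlaps Mest on the opposite strand, held at 28.4 to 43.3 CPM over the libraries and was not called between models (adjusted p = 0.421). The counts used are stranded; reads that fit both genes fall out of an unstranded count, which gave Mest 41920 reads over all libraries, against 58266 in the stranded count.

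Plagl1, also known as Zac1, is a paternally expressed zinc-finger factor that can halt the cell cycle and that regulates other imprinted genes in the mouse. Plagl1 (plus strand, chr10:13060504-13131694) stood at 74.8, 35.8, 5.76, 54.1 and 61.4 CPM in GFP+ cells of A to E, against 81.7, 193, 6.71, 115 and 49.4 CPM in GFP- cells. C was again below all other libraries, and the highest value was that of GFP- cells in B. The models differed in Plagl1 (edgeR F test, adjusted p = 0.0151), but without C the adjusted p was 0.802.

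**Figure D3:**
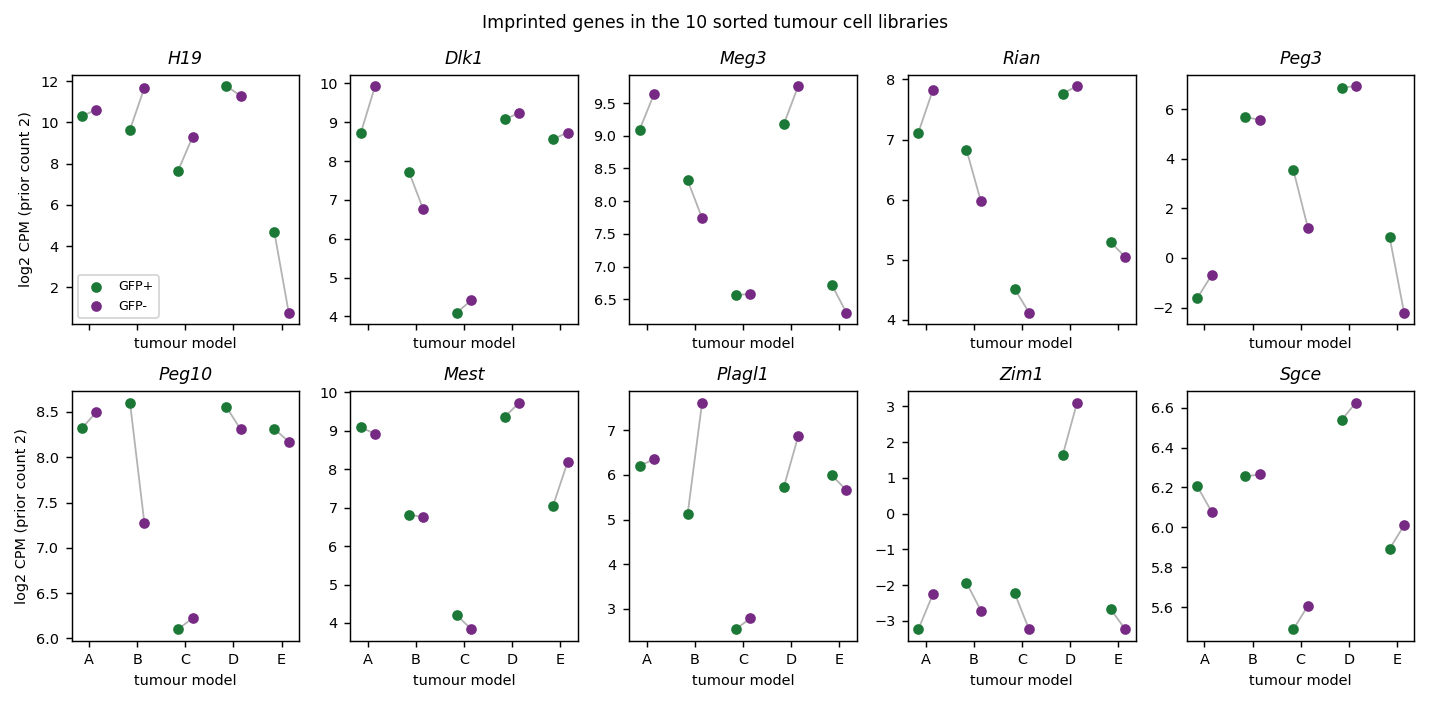
Log2 CPM (prior count of 2) of the 10 members by tumour model, 1 panel each with a scale of its own, and the GFP+ point left of the GFP- point of each model, joined by a line. Both C points lie lowest for Dlk1, Rian, Peg10, Mest, Plagl1 and Sgce, and Zim1 stands clear of its other values only in D, with 3.07 CPM for GFP+ and 8.39 CPM for GFP- cells.

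Set side by side per length, H19 was the most abundant member in 8 of the 10 libraries, with a mean RPKM (CPM per kb of exon) of 561 over the 10 libraries and a range of 0.639 to 1453. Mest (81.8), Dlk1 (65.5), Peg10 (40.1) and Meg3 (20.5) followed on the same scale of mean RPKM. Plagl1 (8.67), Sgce (6.62), Rian (6.10) and Peg3 (2.69) were lower, and Zim1 (0.147) was lowest. Length here counts every annotated exon base of a gene, from 2460 for H19 to 18234 for Rian. It can exceed the length of the main transcript, and the order depends on it. The means also hide differences between models. In E the most abundant member per length was Dlk1 in both populations, with an RPKM of 64.9 in GFP+ and 73.8 in GFP- cells, whereas H19 had an RPKM of 10.1 in GFP+ and 0.639 in GFP- cells. In C the second most abundant was Peg10, with an RPKM of 10.3 in GFP+ and 11.1 in GFP- cells.

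Across the 5 tumour models, each of the 9 tested members was called at an adjusted p under 0.05 (edgeR quasi-likelihood F test of the 4 model terms), against 54.7% of all 13986 genes. The 2 libraries that stand for a model in this test are its 2 sorted populations. The p-values thus measure the spread between these libraries and not between animals. Without D, the model whose 2 libraries were least alike in Xist, each of the 9 was still called. Without C, 4038 genes were called between the remaining models, against 7655 with it. A log2 range of model means over 2, or 4-fold, was found for 8 of the 9, Sgce being the one below it, and for 18% of all genes. The median range was 3.71 over the 9 members, 1.37 over 50 other imprinted genes and 0.94 over all genes. The members were listed with earlier results of these data in view, so these shares describe the list and do not test it.

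The same tumour models marked the extremes for most members. The lowest model mean was in C for 6 of the 9 (Dlk1, Rian, Peg10, Mest, Plagl1 and Sgce). It was in C for 32% of the 50 other imprinted genes and 26.5% of all genes. For these 6, both C libraries lay below all others, as in 12% of the other imprinted genes and 14.5% of all genes. The highest model mean was in D for 7 of the 9, all but Dlk1 and Plagl1. It was in D for 30% of the other imprinted genes and 14.6% of all genes. For H19, Meg3, Rian and Peg10 the libraries of D overlapped those of the next model. Both D libraries lay above all others for 3 members, Peg3, Mest and Sgce. The same held for 10% of the other imprinted genes and 4.45% of all genes. Model E did not follow a single pattern: H19 was lowest there by far, Peg3 was near 0, while Dlk1 and Peg10 stood at 367 and 309 CPM in GFP+ and 418 and 283 CPM in GFP- cells.

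**Figure D4:**
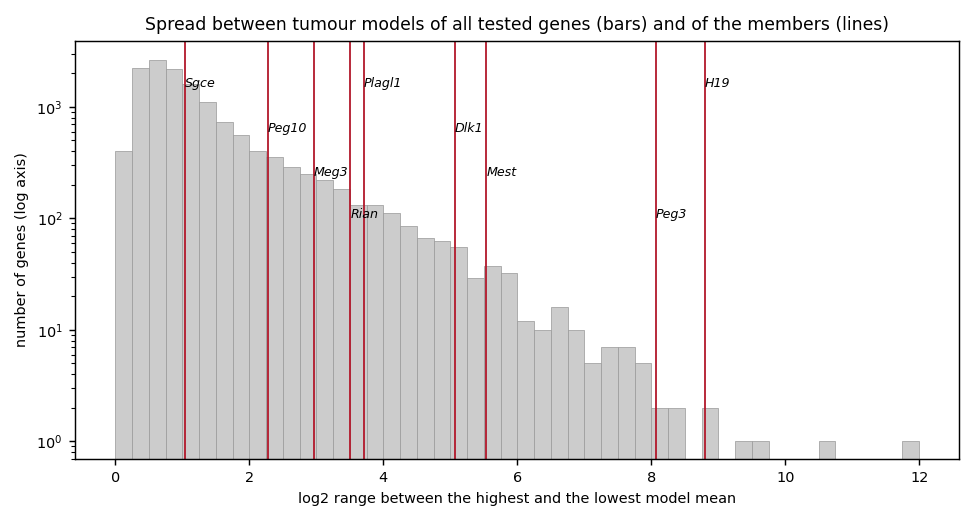
Distribution over the 13986 tested genes of the gap between the highest and lowest model mean of log2 CPM, as bars of gene numbers on a log axis, with a line for each of the 9 tested members. H19 (8.80) and Peg3 (8.07) lie at the far end, and Sgce (1.03) lies near the median of all genes, 0.94.

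Between GFP+ and GFP- cells no member passed the test for a change. The fit of the paired design, with the model as a block, called 0 of the 9 members, and 0% of all 13986 genes passed an adjusted p under 0.05 (edgeR). At an unadjusted p under 0.05 it gave 0 of the 9 members and 1257 genes (8.99%); DESeq2 called 195 genes (1.39%) and none of the members. No member moved in 1 direction in all 5 pairs, against 9.77% of all genes, and no member's GFP+ values lay clear of its GFP- values, against 0.179%. The lowest unadjusted p of a member was 0.0955, for Plagl1 (log2 -0.74, SE 0.39, adjusted p = 0.619), which was lower in GFP+ cells in 4 of 5 pairs. Without model B its fitted difference was -0.31. Its mean level was 46.4 ± 26.7 CPM for the GFP+ libraries and 89.2 ± 70.5 CPM for the GFP- libraries (SD over 5 models).

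The fitted differences of the other members ranged from log2 -0.21 for H19 to 0.73 for Peg3 (SE 0.48, adjusted p = 0.692, edgeR). The Peg3 value was 0.28 without C, 0.48 without E and 1.18 without D. Mean Dlk1 was 317 ± 206 CPM for GFP+ and 425 ± 388 CPM for GFP- libraries, and mean Meg3 was 335 ± 238 CPM for GFP+ and 407 ± 387 CPM for GFP- libraries (SD over 5 models). Sgce was the member pinned most closely: its mean was 70.3 ± 19.3 CPM for GFP+ and 70.3 ± 18.1 CPM for GFP- libraries (SD over 5 models), and its fitted difference was -0.04 (SE 0.07, adjusted p = 0.913, edgeR). For H19 the same error was 0.78, so a change of a size that would be visible in Sgce could not be seen in H19.

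The pair differences of most members scattered more than those of a typical gene. Their SD over the 5 pairs was 2.37 for H19, which 14 of 13986 genes reached, 1.70 for Peg3 and 1.12 for Plagl1, against a median of 0.29 over all tested genes on the same log2 scale. Sgce, at 0.10, was the only tested member below that median. Model B gave several of the large gaps: GFP+ cells exceeded GFP- cells there in Peg10 by 1.33, in Dlk1 by 0.97, in Rian by 0.86 and in Meg3 by 0.58, but lay lower in H19 (-2.03) and Plagl1 (-2.49). In A the chromosome 12 genes went the other way, with -1.22 for Dlk1, -0.71 for Rian and -0.54 for Meg3.

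**Figure D5:**
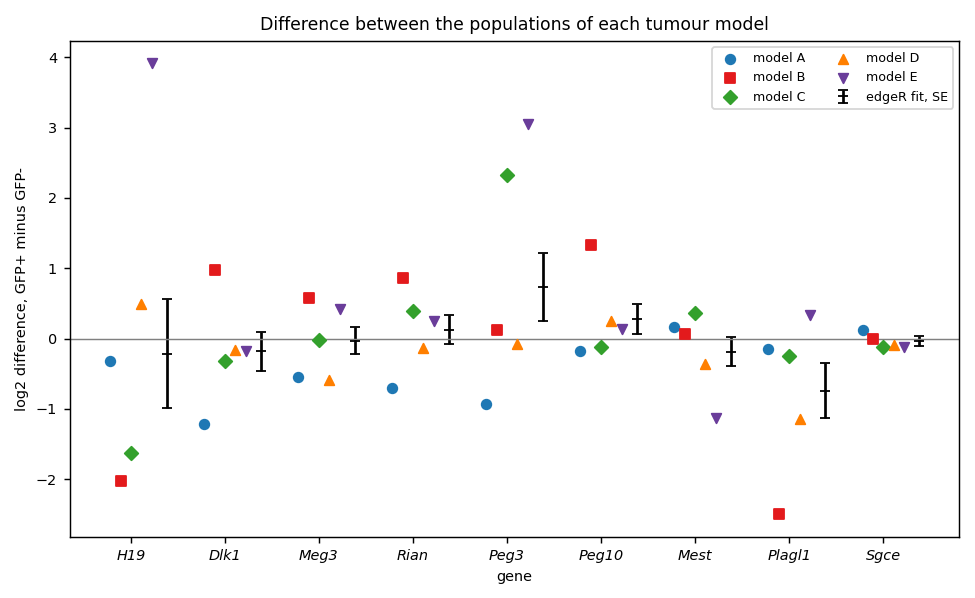
Log2 CPM of GFP+ minus GFP- cells for each tested member, 1 point per model, with the edgeR estimate and its SE as a black bar beside them and a line at 0 for no difference. Points of H19 span -2.03 to 3.91 and lie on both sides of 0, whereas those of Sgce lie between -0.12 and 0.13.

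Other signals moved with the sort in the same pairs. A list of 8 mitosis genes summed to 436, 679, 426, 490 and 558 CPM in GFP+ cells of A to E, against 388, 172, 260.0, 178 and 356 CPM in GFP- cells. The sum was higher in GFP+ cells in 5 of 5 pairs and most so in B and D. These were the 2 models in which Plagl1 had its largest shortfall in GFP+ cells. Within the list, 2 genes went the other way in A. They were Mki67 (111 CPM for GFP+ and 124 CPM for GFP- cells) and Bub1 (22.5 CPM for GFP+ and 22.7 CPM for GFP- cells). Adipocyte and preadipocyte markers, of which 1 of 5 (Cebpa) passed the filter and Plin1 stood at 0, summed in B to 25.03 CPM for GFP+ and 66.8 CPM for GFP- cells, and in D to 26.5 CPM for GFP+ and 67.7 CPM for GFP- cells. Nearly all of it was Cebpa, a fat and myeloid cell transcription factor, which in B had 24.5 CPM for GFP+ and 66.0 CPM for GFP- cells, while Adipoq did not exceed 0.193 CPM in any library. Over all models that list ran from 9.41 to 26.5 CPM in GFP+ and from 9.92 to 67.7 CPM in GFP- cells. Pericyte and smooth muscle markers (5 of 6 tested) summed to 143 to 519 CPM in GFP+ and 144 to 951 CPM in GFP- cells. The 951 CPM were in B, 780 CPM of them Pdgfrb, and there H19 had its lowest GFP+ minus GFP- difference. In D this sum was likewise higher in GFP- cells (519 CPM for GFP+ and 689 CPM for GFP- cells). H19, however, was higher in GFP+ cells of D (log2 0.48). The Schwann lineage list (7 of 8 tested) summed to 10.6 to 261 CPM in GFP+ and 9.56 to 71.2 CPM in GFP- cells. Immune markers summed to at most 16.8 CPM in GFP+ and 21.5 CPM in GFP- libraries, and endothelial markers to at most 4.51 CPM in GFP+ and 4.01 CPM in GFP- libraries. The part of these cell and cycle signals in the differences of the members was not tested.

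A longer list of 72 other imprinted genes, of which 70 had a row and 50 were tested, gives the setting. Between models 32 of the 50 (64%) were called, against 54.7% of all genes. A log2 range over 2 was found for 19 of the 50 (38%), against 18% of all genes. Between GFP+ and GFP- cells 0 of the 50 were called by edgeR, against 0% of all genes. An unadjusted p under 0.05 was found for 10 (20%), against 8.99% of all genes. The median difference was 0.11 over these 50, with 37 higher and 13 lower in GFP+ cells. It was -0.04 over the 9 members, with 3 higher and 6 lower. Over all genes it was -0.0028, with 6898 higher and 7088 lower.

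The 3 with the smallest p, apart from the genes listed above for the members' domains, were Nnat, Phactr2 and Inpp5f, and Ppp1r9a beside Sgce had a smaller one still. Nnat, a paternally expressed membrane proteolipid of the brain, stood at 8.61, 78.5, 17.4, 118 and 42.9 CPM in GFP+ cells of A to E, against 4.01, 28.8, 6.99, 55.7 and 47.9 CPM in GFP- cells. It was higher in GFP+ cells in all models but E (log2 0.92, SE 0.22, adjusted p = 0.363, edgeR). Ppp1r9a, which encodes the actin-binding neurabin, was higher in GFP+ cells in 5 of 5 pairs (log2 0.44, SE 0.10, adjusted p = 0.332, edgeR). Phactr2, which lies near Plagl1 at chr10:13207717-13474412, was lower in GFP+ cells in 5 of 5 pairs, with log2 differences of -0.12 (A), -1.38 (B), -0.35 (C), -0.66 (D) and -0.67 (E). Phactr2 (log2 -0.64, adjusted p = 0.393) and Inpp5f (log2 0.30, adjusted p = 0.400) did not pass either.

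Among 19 regulators of imprints, 17 were tested. Between models 10 of the 17 (58.8%) were called, against 54.7% of all genes. Their median log2 range was 0.95, close to that of all genes (0.94). The maternal-effect gene Dppa3 stood at 0. Zfp57 encodes a protein that binds TGCCGC where it is methylated, and neither binding nor methylation was measured at the matches printed above. Zfp57 RNA stood at 35.0, 37.1, 12.5, 58.9 and 15.9 CPM in GFP+ cells of A to E. In GFP- cells of the same models it stood at 39.8, 39.0, 9.63, 81.1 and 16.6 CPM. Zfp57 was singled out after its values were seen. It was highest in D and lowest in C, in both populations. Dnmt1, the maintenance DNA methyltransferase, was likewise picked afterwards and stood at 269, 277, 223, 208 and 388 CPM in GFP+ cells, against 252, 162, 220.0, 147 and 464 CPM in GFP- cells, with its highest values in E.

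Likeness of pattern was measured as the root mean square (RMS) difference of centred log2 CPM over the 10 libraries, where 0 is the same pattern. For Meg3 the most similar of all tested genes were Rian (0.35) and Begain (0.38), and for Rian they were Meg3 (0.35) and Mirg (0.37), all 4 from the chromosome 12 domain. Mest had Dlk1 (0.64) as its closest gene although the 2 lie on different chromosomes, and then Kcnt2 (0.72). The closest to Dlk1 were Raet1d (0.47) and Angptl1 (0.49). Peg10 was nearest to Prag1 (0.32) and Dnah7b (0.35), Plagl1 to Gm20661 (0.29) and Jakmip2 (0.41), and Sgce to Mapk7 and Rdh11 (0.13 each). H19 (Nkx3-2, 0.87, and Tcfl5, 1.22) and Peg3 (Tshz2, 0.81, and Kif1a, 1.28) had no gene as near on this scale. A gene that varies little lies near many others, so these distances read against the RMS of each member itself, which was 3.35 for H19, 3.37 for Peg3, 1.31 for Meg3 and 0.35 for Sgce.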

How the data were processed

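Per the submitters' processing notes, the authors used STAR 2.4.2.8 and the build mm10; of the annotation, the kit and its strandedness these sources say nothing (not given in the sources used here). What the authors deposited are raw counts of reads by gene. Second-strand counts were used, since they took 96.9% to 97.1% of stranded gene reads. The 4 summary lines (21.3% to 24.3% of reads, 5.99% to 9.74% being reads with several positions) were left out. Names and coordinates came from GENCODE vM21 on the same build; 46005 identifiers matched and 512 did not.

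GFP+ and GFP- cells were compared with edgeR 4.0.16 (R 4.3.3): TMM scaling, the filterByExpr filter, the model as a block as in the series' design text, and Benjamini-Hochberg adjustment over all 13986 genes. SEs were derived from the F statistic. Models were compared in the same fit, and log2 CPM used TMM-scaled totals and a prior count of 2, whereas CPM used plain totals of gene reads. Libraries with the same letter are from 1 tumour model, and their deviations correlated at 0.628 to 0.867. The models are taken as replicates; where they are not separate animals, p-values measure only the spread between these samples. No 2 libraries were identical. The steps were tested on simulated data.

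Members, lists and tests were chosen with earlier results of these data known. Named genes are the members, listed genes of their domains and the 2 genes nearest in pattern to each tested member. The 3 other imprinted genes with the smallest p are named as well. Genes outside this rule (Zfp57, Dnmt1, Magel2, Ndn, Peg12, Mkrn3, Snrpn, Xist and single marker genes) were picked with their values in view. Alternatives were RLE factors, library totals, no filter, a stricter filter (1 CPM in 5 libraries), unstranded counts, DESeq2 1.42.0, no block, and leaving out each model.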

Additional observations from a re-analysis of the deposited data

Results flagged for a closer look

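Of 30 sets of 5 values examined (GFP+ levels, GFP- levels and pair differences of the 10 members), 6 held a sample far from the other 4. Chance alone would flag about 1 in 20 sets if the sets were independent. They share libraries, and Zim1 had few reads outside D, so the number flagged cannot be judged against that rate. Among GFP+ libraries, model C stood apart as the lowest in Dlk1 (log2 CPM 4.10) and in Peg10 (log2 CPM 6.10), and model D as the highest in Zim1 (log2 CPM 1.64). Among GFP- libraries, model D was again the highest in Zim1 (log2 CPM 3.11), and model E was the lowest in H19 (log2 CPM 0.77). Among pair differences, that of Peg10 in model B stood apart from the rest, at 1.33 on the log2 scale in favour of GFP+ cells; without B the fitted Peg10 difference was 0.02.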

How the results depend on the processing

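The comparison of GFP+ with GFP- cells called 0 genes under RLE factors, the stricter filter, unstranded counts, library totals (added after seeing the data), no replicate block and each fit without 1 model (0 to 0), but 47 with no filter and 195 with DESeq2. Without the replicate block 190 genes had an unadjusted p under 0.05, against 1257 with it. Between models 7655 genes were called, 4038 to 7545 with 1 model left out, the lowest without C. Of 108 values of the tested members between populations, 100 kept their direction and 8 reversed, and none was called (adjusted p 0.496 to 1.00). Leaving out 1 model gave -0.89 to 0.31 for H19, -0.47 to 0.076 for Dlk1, -0.19 to 0.11 for Meg3, -0.063 to 0.33 for Rian, -0.32 to 0.031 for Mest, 0.28 to 1.18 for Peg3, 0.02 to 0.39 for Peg10, -1.05 to -0.31 for Plagl1 and -0.09 to -0.02 for Sgce on the log2 scale. Rian was -0.12 with no replicate block. The cause was not tested. Of 99 calls between models 96 held, and those of Dlk1, Peg10 and Plagl1 were lost without C. Zim1 entered a fit only with no filter (log2 -0.66, adjusted p = 0.915, edgeR); its reads outside D are too few to compare populations.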

Other observations

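Magel2, a paternally expressed gene of the Prader-Willi region that acts in protein sorting, was picked from the list of other imprinted genes after its values were seen. It stood at 1.78, 0.373, 0.0543, 2.03 and 82.1 CPM in GFP+ cells of models A to E, against 9.36, 0.136, 0.165, 1.502 and 117 CPM in GFP- cells. It was abundant in E, the model in which H19 and Cdkn1c were lowest. Ndn, Peg12 and Mkrn3, near Magel2 on chromosome 7, also had their highest model means in E. Snrpn, on the same chromosome, had its lowest there.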
